A study of Arabidopsis thaliana with 6 samples.

Results

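A small set of defence-type genes of Arabidopsis thaliana, the thale cress, was followed in roots and rosette leaves of plants grown with and without lead. It holds OSM34 (AT4G11650), an osmotin of the PR-5 type, AT2G38870, a proteinase inhibitor of the PR-6 type, and AT4G16260, of the beta-1,3-glucanase family. They were chosen by name, with their values in these arrays already known, and each was represented by 1 probe set that named 1 gene. That makes 3 of the 3592 genes, and 3 of the 3784 probe sets, that could be named singly among the 8247 probe sets of the array that are not controls. Plants of accession Col-4 were grown in hydroponic culture and harvested at growth stage 6. The 6 arrays were roots with no added lead, with 25 ppm and with 50 ppm lead, and rosette leaves at the same levels. Lead was given as the nitrate in 2 additions to the nutrient solution. There was a single array for each organ at each dose, and replicates are therefore lacking throughout. The sources used here give neither the number of plants behind an RNA sample nor whether a root and a leaf sample came from the same plants.

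Pathogenesis-related (PR) proteins are made by plants in response to infection and to several other stresses, and some are also present in healthy roots. Osmotins and other PR-5 proteins resemble thaumatin and can disturb fungal membranes. PR-6 proteins block serine proteinases of attackers, while beta-1,3-glucanases cut the glucan of fungal walls and callose, the plant's own wall glucan. By its title, the series concerns the genes of lead uptake, tolerance and defence.

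All values are signals on a linear scale, brought to a common trimmed mean. Before a fold was taken, any signal below 8 (30% of all signals are lower) was set to 8, so a fold measured against such a value is a lower bound. The organ labels matched their markers, though the lists were chosen with earlier results of these data known. The 7 probe sets of 4 green leaf genes, among them RCA and PSBW, summed to between 98.6 and 158 on the root arrays and to between 24072 and 34303 on the leaf arrays. The 4 root genes, among them BGLU21, summed to between 8008 and 9682 on the root arrays and to between 10.6 and 18.0 on the leaf arrays. One array differed from the rest in the labels: the average background of the 50 ppm root array was 192.65, against 86.48 on the control and 97.80 on the 25 ppm root arrays and 69.03 to 85.32 on the leaf arrays.

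OSM34 measured 189 on the control root array, 1232 on the 25 ppm and 2422 on the 50 ppm root array. The signal was thus lowest in control roots and highest at the upper dose. Against control roots the ratio was 6.52-fold at the lower dose and 12.8-fold at the upper. These changes ranked 13th and 30th from the top among the 5395 probe sets tested, those whose signal was at or above the overall median on 1 array or more. By the smaller of the changes at the 2 doses, OSM34 ranked 7th. The step between the doses was smaller, at 1.97-fold, and 594 probe sets had a larger one. With quantile normalization that step was larger, at 1.64 on the log2 scale against 0.97. The change at 25 ppm was measured on an array whose background was close to that of the control array; the part of the high background in the value at 50 ppm was not tested.

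In leaves OSM34 was listed at 1.20 without lead, 2.61 at 25 ppm and 1.79 at 50 ppm. All 3 values lay under 8, where signals were not told apart, so that a change with lead in leaves was not measurable. The letter s in the name of the OSM34 probe set, and of that for AT4G16260, is the array maker's mark for probes that may match more than 1 transcript. The signals of these 2 genes may therefore include related transcripts.

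AT2G38870 measured 101 on the control root array, 665 on the 25 ppm and 418 on the 50 ppm root array. Both root arrays with lead were above the control, and the lower dose gave the higher signal. The changes were 6.60-fold at 25 ppm and 4.15-fold at 50 ppm, ranking 12th and 172nd from the top. The signal at 50 ppm was 1.59-fold lower than at 25 ppm, a step under the 2-fold size used for counting here.

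In leaves AT2G38870 measured 237 without lead, 257 at 25 ppm and 45.7 at 50 ppm. The control and 25 ppm arrays lay close together, and the 50 ppm array stood below them. Relative to control leaves the signal was 1.09-fold at the lower dose. At the upper dose it was 5.18-fold lower, the 28th lowest such change of the 5395. Between the doses the signal was 5.62-fold lower at 50 ppm than at 25 ppm, and 10 probe sets had a lower value for that step. At 50 ppm this transcript was thus above the control array in roots and below it in leaves. All 6 of its signals were above 8, so none of its folds is a bound.

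AT4G16260 measured 577 on the control root array, 614 on the 25 ppm and 1484 on the 50 ppm root array. The first values differed by 1.06-fold, and the 50 ppm array was 2.57-fold above the control and 2.42-fold above the 25 ppm array. Its change at 50 ppm ranked 382nd. That array carried the high background, and without it the root signals of this gene gave no step of 2-fold.

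In leaves AT4G16260 measured 12.8 without lead, 5.22 at 25 ppm and 91.4 at 50 ppm. The 25 ppm value was under 8 and the control value just above it, while the 50 ppm value stood well apart. The signal at 50 ppm was 7.15-fold higher than in control leaves, the 12th highest such change. It was at least 11.4-fold higher at 50 than at 25 ppm, the 4th highest. The size of that step depends on the floor: on the log2 scale it was 3.51, against 1.85 with the floor at the 50th percentile, 2.34 with an offset of 16 and 4.13 with the floor at the 10th percentile. The change from control leaves depends on it too. With the floor at the 50th percentile (25.3) the control value is also set to the floor, so that change is then 1.85 as well, against 2.84. The 4 root markers were all under 8 on the 50 ppm leaf array. Some other transcripts high in roots were not: AT4G37520 measured 15.8, 4.72 and 47.1 in leaves in dose order, and AT3G21770 measured 16.0, 10.3 and 32.8. Both were picked for profiles near that of AT4G16260, which fixes part of their leaf pattern. Of the others picked in this way, AT4G34600 (24.3) and AT2G14900 (39.7) were above 8 on the 50 ppm leaf array. JAL31 (7.28) was under 8 there, as OSM34 (1.79) was. The part of root material in the leaf value of AT4G16260 was not tested. In bulk RNA, a change in the number of cells that express a gene and a change in RNA per cell cannot be told apart.

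**Figure D1:**
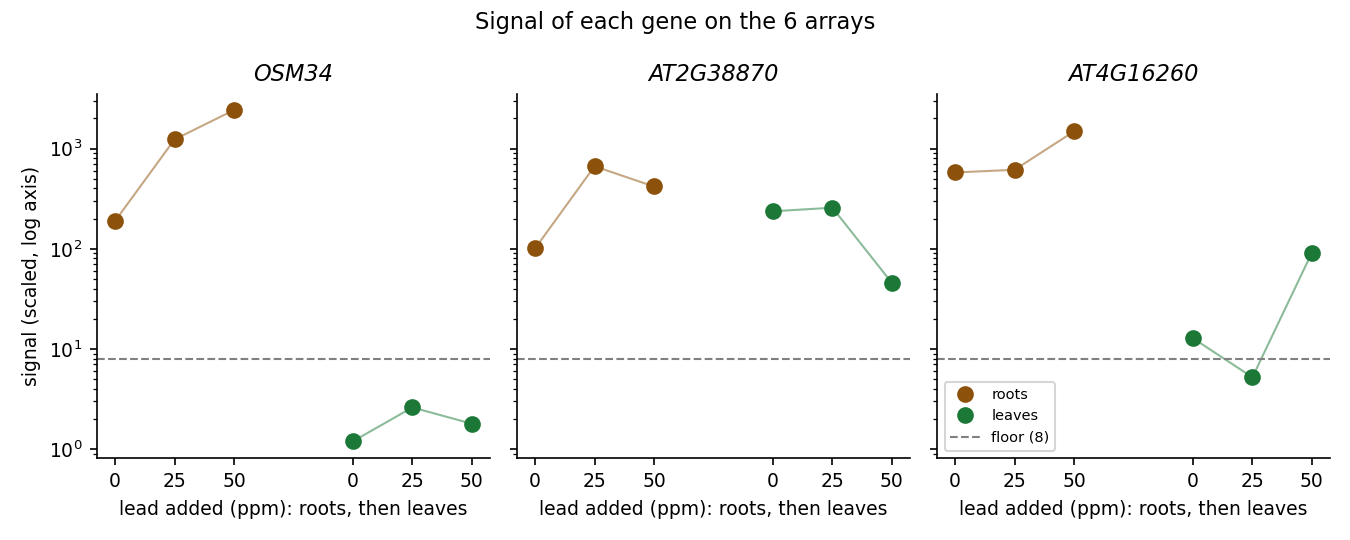
Signal of OSM34, AT2G38870 and AT4G16260 on each of the 6 arrays (log axis, scaled signal), with roots on the left and leaves on the right of each panel and lead rising from 0 to 50 ppm within each organ; each point is 1 array and the dashed line is the floor of 8. OSM34 lies under the floor on all leaf arrays, AT2G38870 is lowest in leaves at 50 ppm (45.7), and AT4G16260 is highest at 50 ppm in both organs.

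The orders of the 6 levels differed between the genes. For OSM34 the order from the top was roots at 50 ppm, roots at 25 ppm and control roots, with the leaf arrays under the floor. Its values in roots at 50 and 25 ppm were 1.97-fold apart, and a step of 2-fold or less is left unordered here. The 2-fold line is a rule of size only, since with no replicate a larger step does not settle an order either. For AT2G38870 it was roots at 25 ppm, roots at 50 ppm, leaves at 25 ppm, control leaves, control roots and leaves at 50 ppm. Of its neighbours in that order, 3 pairs were 2-fold or less apart and so are not ordered: roots at 25 and 50 ppm, roots at 50 ppm and leaves at 25 ppm, and leaves at 25 ppm and control leaves. For AT4G16260 all root arrays were above all leaf arrays, and 2 pairs of neighbours are not ordered: roots at 25 ppm and control roots, and control leaves and leaves at 25 ppm, the last of these under the floor.

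By size, OSM34 and AT2G38870 were at least 2-fold above control roots at both doses, a class that held 2.89% of the tested probe sets. At 25 ppm alone these 2 genes were 2-fold higher, as were 4.69% of the tested probe sets, while 5.49% were lower. At 50 ppm all 3 genes were 2-fold higher, as were 11%, while 5.32% were lower. In leaves 0 of the 3 genes were 2-fold higher or lower at both doses, where 0.982% were higher and 1.04% lower. At 25 ppm alone 0 of the 3 were 2-fold different in leaves, where 2.87% were higher and 3.08% lower. At 50 ppm alone AT2G38870 was among the 3.76% that were at least 2-fold lower in leaves, and AT4G16260 among the 4.45% that were higher. Between the doses AT4G16260 was among the 10.4% of probe sets at least 2-fold higher at 50 ppm in roots (3.73% were lower) and the 4% in leaves, and AT2G38870 among the 3.91% that were lower in leaves. The genes were picked with these values known, so the shares place them and do not test them. Of the 563 and 201 probe sets that were 2-fold higher or lower at 50 than at 25 ppm in roots, 73.7% were higher, and 60.0% with quantile normalization. The median step over all tested probe sets was 0. The changes at 25 and 50 ppm share a control array, so the position of a gene on both axes of the plot of changes is not 2 independent readings.

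**Figure D2:**
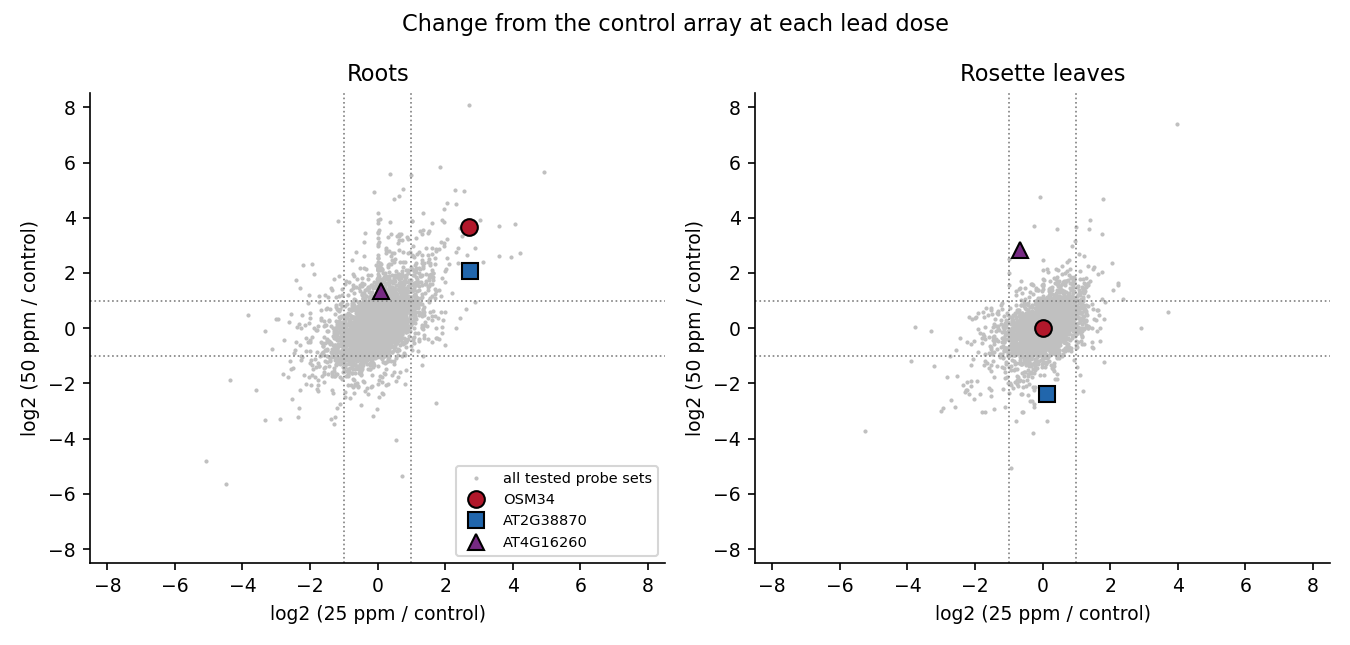
Log2 change from the control array at 25 ppm (horizontal) and at 50 ppm (vertical) for the 5395 tested probe sets (grey) and the 3 genes (coloured), in roots on the left and leaves on the right; dotted lines mark 2-fold. In roots OSM34 and AT2G38870 lie above 2-fold at both doses; in leaves AT4G16260 lies high and AT2G38870 low on the 50 ppm axis only, and OSM34 sits at 0 because its leaf signals are under the floor.

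Roots and leaves were compared at matched doses in limma, with dose as a term and over all 5395 probe sets. The 3 genes were part of that fit. They were chosen with these same root and leaf values known, so their organ differences are given as a description, without their p-values. At an adjusted p under 0.05, roots were higher for 31% of the 5395 probe sets and leaves for 21.6%. OSM34 was higher in roots on 3 of 3 pairs of arrays, by at least 23.6-fold without lead, 154-fold at 25 ppm and 303-fold at 50 ppm. The mean log2 difference was 6.69. All of its leaf values sat at the floor, so this difference is a lower bound, and the probe set passed the filter on low signals through its root arrays. At 50 ppm its gap was the 2nd highest of the tested probe sets.

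AT4G16260 was also higher in roots at every dose, by 45.2-fold without lead, at least 76.6-fold at 25 ppm and 16.2-fold at 50 ppm. Its mean log2 difference was 5.26. The gap was smallest at 50 ppm, where the leaf signal was highest.

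For AT2G38870 the order of the organs differed between doses. Its root signal was 2.35-fold lower than its leaf signal without lead, 2.59-fold higher with 25 ppm, and 9.16-fold higher with 50 ppm lead. The mean log2 difference was 1.11, and 2 of 3 pairs showed its direction. Leaving out the control root or the control leaf array gave a difference of 2.28. Whether the organ gap of any gene depended on the dose was not tested, since 1 array per organ and dose leaves no spread for that test. The p-values given below for other genes measure only how far the organ difference varied over the 3 doses, since the arrays are not known to be independent cultures.

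**Figure D3:**
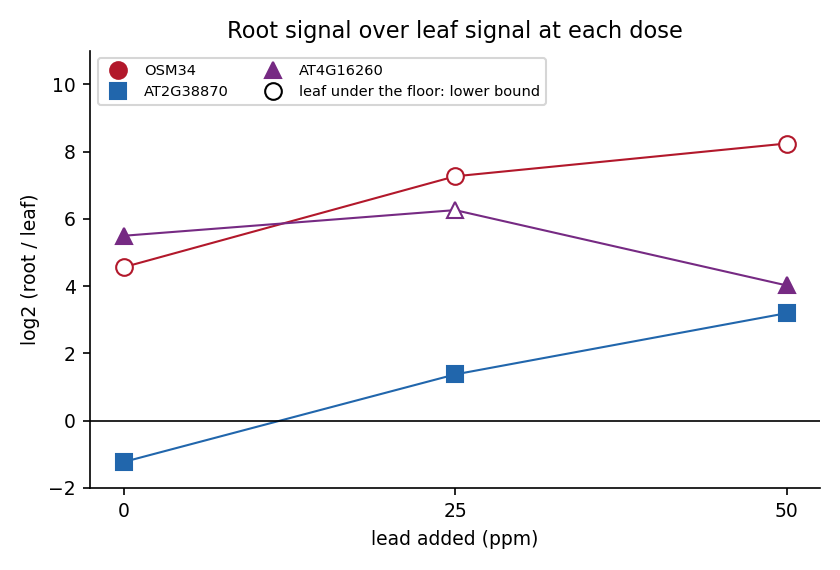
Log2 ratio of root to leaf signal for each gene at 0, 25 and 50 ppm lead; each point is 1 pair of arrays, and open symbols are lower bounds because the leaf signal was under the floor. OSM34 and AT4G16260 lie above 0 at all doses, while AT2G38870 lies below 0 without lead (-1.23) and above it at 25 ppm (1.37) and 50 ppm (3.20).

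Among the other measured genes of the same families, 1 was 2-fold different from the control at both doses. The PR-5 or thaumatin-like list held 11 further genes that could be named, 7 of them tested. In roots 0 of the 7 were 2-fold higher and 1 was 2-fold lower at both doses, where 2.89% and 1.82% of all tested probe sets were. The lower gene was AT1G75800, whose root signals in dose order were 142, 48.1 and 61.6. The median log2 change of the 7 with lead was 0.11 in roots and 0.11 in leaves, against 0 and 0.04 over all tested probe sets. AT4G36010 measured 27.0, 34.9 and 59.8 in roots in dose order, 2.22-fold above the control at 50 ppm. AT2G28790 measured 401, 575 and 436 in roots. In the organ comparison 4 of the 7 were higher in roots, where 31% of all tested probe sets were, among them AT2G28790 (log2 difference 2.27, limma, adjusted p = 0.000406) and ATLP-1, a thaumatin-like gene (2.35, limma, adjusted p = 0.000690). AT4G18250 was higher in leaves, as were 21.6% of all.

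Of the PR-6 family, AT3G46860 was the only other gene with a named probe set. It was not tested, since its signals did not reach the median of all signals on any array and were at most 8.43.

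Of the glycosyl hydrolase family 17, to which beta-1,3-glucanases belong, 9 further genes were named and 5 tested. In roots 0 of the 5 were 2-fold different at both doses (2.89% of all tested probe sets were higher and 1.82% lower), and in leaves 0 (0.982% and 1.04%). With shares this low, a count of 0 of 5 says little about the list. The median log2 change was 0.17 in roots and 0.06 in leaves. At 50 ppm alone AT4G17180 (13.3, 18.0 and 28.9 in dose order) and AT4G34480 (21.5, 18.5 and 44.9) were 2.17-fold and 2.09-fold above control roots, a size that 11% of all tested probe sets reached. In leaves AT4G18340 was below the control at both doses, as AT4G16260 was at 25 ppm but not at 50 ppm. It measured 35.7, 18.8 and 8.57 in dose order and was 4.16-fold lower than the control at 50 ppm. In roots it measured 234, 244 and 178, and it was higher in roots than in leaves (log2 difference 3.60, limma, adjusted p = 0.000605). AT1G11820, with a pair of probe sets, lay between 39.5 and 59.3 on all 6 arrays.

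**Figure D4:**
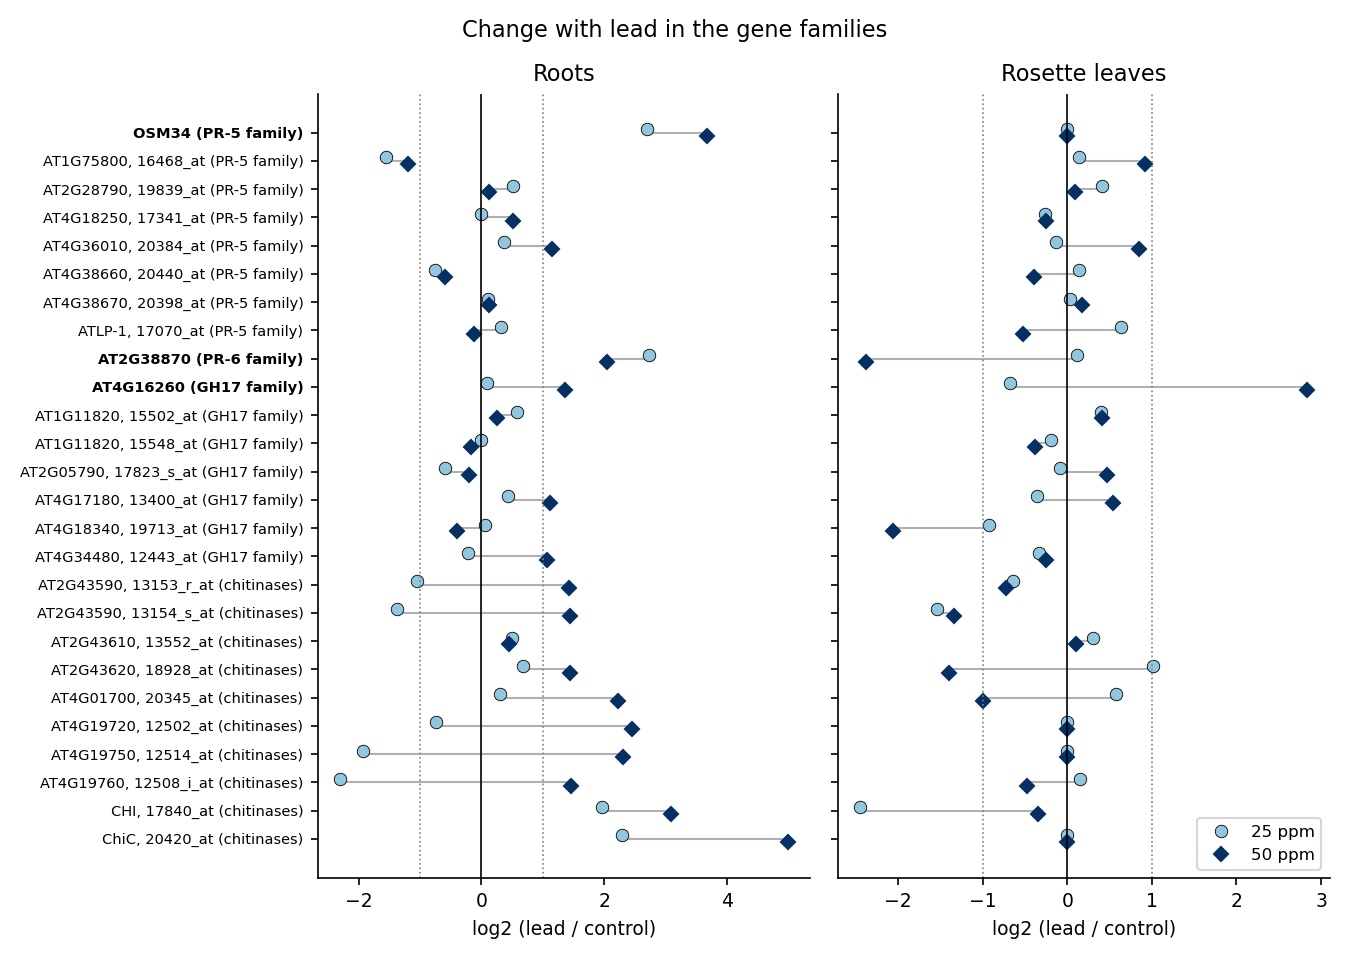
Log2 change from the control array at 25 ppm (circles) and 50 ppm (diamonds) in roots and leaves for the 3 genes (bold), the other tested probe sets of the PR-5 and GH17 families (GH17 is glycosyl hydrolase family 17) and those of chitinases; dotted lines mark 2-fold. Only chitinases among these lists hold other genes above 2-fold at both doses in roots, and AT4G18340 lies at -2.06 in leaves at 50 ppm.

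Genes of neighbouring defence groups gave a mixed picture. Of 9 tested chitinase genes, whose products cut the chitin of fungal walls, 2 were 2-fold higher in roots at both doses (CHI and ChiC) and 0 lower, against 2.89% and 1.82% of all tested probe sets. CHI measured 55.5, 216 and 471 in roots in dose order, and 297, 54.5 and 234 in leaves. ChiC was under 8 in control roots and measured 39.3 at 25 ppm and 255 at 50 ppm, at least 31.8-fold above the control at the upper dose. At 50 ppm alone 8 of the 9 were 2-fold above control roots, against 11% of all tested probe sets, and 7 of the 9 were 2-fold above the 25 ppm root array, against 10.4%. AT4G01700, for example, measured 107, 133 and 499. These counts rest on the 50 ppm root array, the one with the high background, whose part was not tested. At 25 ppm CHI and ChiC were 2-fold above control roots, as were 4.69% of all tested probe sets. AT4G19760 (52.2, 10.6 and 143 in dose order), AT4G19750 (36.8, 9.61 and 183) and both probe sets of AT2G43590 (201, 77.8 and 548, and 51.8, 25.1 and 140) were 2-fold lower, as were 5.49%. For these genes the step between the doses includes that fall. In leaves 1 of the 9, AT2G43590, was 2-fold lower at both doses on the mean of its 2 probe sets, of which 1 passed that size alone. Of all tested probe sets 1.04% were lower in this way.

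Of the other proteinase inhibitors 4 were tested and 0 were 2-fold different at both doses in either organ. The same held for the 4 tested genes of the list of classic PR proteins, defensins and thionins. These were THI2.1, LCR69, PDF2.1 and LCR68, of the thionin and defensin types, so no classic PR protein of that list was tested. In roots 2.89% of all tested probe sets were higher and 1.82% lower, and in leaves 0.982% and 1.04%. AT2G43530, listed with the trypsin inhibitors, measured 10.4, 5.20 and 112 in roots and 757, 766 and 1225 in leaves. In roots its 50 ppm value was 10.8-fold above the control. CYS1, a cystatin and so an inhibitor of cysteine proteinases, lay between 626 and 694 in roots and between 332 and 434 in leaves. LCR69, a small cysteine-rich protein of the defensin type, measured 777, 1635 and 1537 in roots, 2.10-fold and 1.98-fold above the control. PDF2.1 measured 137, 16.9 and 170 in roots in dose order. It was 8.09-fold below the control at 25 ppm, where 5.49% of all tested probe sets were at least 2-fold lower. Of the jasmonate and ethylene list EIN3, a transcription factor of ethylene signalling, was the 1 tested gene, with 1374, 1213 and 1020 in roots and 1759, 2160 and 1985 in leaves. Genes of salicylic acid signalling were not analysed here, as none of the 16 listed had a named probe set. SAG29, which encodes a sugar transporter known from leaf senescence, was under 8 in control leaves and measured 37.4 at 25 ppm and 24.9 at 50 ppm.

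Genes with a like pattern were sought among the 2305 tested probe sets that named 1 gene, by the root mean square distance between log2 profiles over the 6 arrays after centring each on its own mean. Nearest to OSM34 were AT2G38390 (distance 0.88), AT2G38380 (0.89), AT4G24340 (0.95), AT1G62660 (1.11) and AT2G23540 (1.14). All 5 were high in roots and near or under the floor in leaves, so the gap between organs weighs most in this measure. In roots AT4G24340 measured 122, 363 and 475 and AT2G23540 measured 91.8, 229 and 503 in dose order.

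Nearest to AT2G38870 was EXPA4, an expansin, which loosens cell walls (distance 0.60). It measured 123, 353 and 409 in roots and 168, 169 and 83.8 in leaves. WRKY6, a transcription factor, followed (0.69) with 101, 155 and 194 in roots and 110, 93.1 and 35.6 in leaves. AT2G18690 (0.71), AT4G11350 (0.76) and AT4G01870 (0.76) were the others. All 5 were lowest in leaves at 50 ppm among the leaf arrays and lowest in control roots among the root arrays, as AT2G38870 was.

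Nearest to AT4G16260 was AT4G37520 (distance 0.52), with 434, 442 and 635 in roots and 15.8, 4.72 and 47.1 in leaves. Like AT4G16260 it was lowest in leaves at 25 ppm and highest there at 50 ppm. AT3G21770 (0.81), AT4G34600 (1.00), AT2G14900 (1.03) and JAL31, a jacalin-related lectin (1.12), followed. The 3 defence genes were not each other's nearest: the distance between OSM34 and AT4G16260 was 1.53, with 42 other probe sets closer to OSM34. AT2G38870 lay 2.95 from OSM34 and 2.91 from AT4G16260. These distances describe 6 arrays and carry no test.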

How the data were processed

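The deposited values are intensities, 1 linear signal per probe set and array, for 8297 probe sets on 6 one-colour arrays hybridised with biotin-labelled cRNA, per the labels. All 6 value columns were used. Their trimmed means lay near 100.1 to 100.2 on every array; for the software behind the deposited intensities, the sources used here give no name. The 50 control probe sets were set aside, each array was multiplied to equal 2% trimmed means, signals below 8 (the 30th percentile) were set to 8, and analysis used log2 values. The 5395 probe sets reaching the median (25.3) on at least 1 array were tested.

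Probe sets were named from the platform annotation through gene identifiers in a RefSeq table of assembly TAIR10.1: 3784 named 1 gene, 70 several, 4383 are unnamed here and 10 had no match. The table holds no gene descriptions, so the planned word search for family members used symbols and synonyms and gave 0 further measured genes. The planned promoter motifs were not analysed here.

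Lead changes were counted by size (2-fold) without a test. For genes other than the 3 members, roots and leaves were also tested in limma 3.58.1 (R 4.3.3). The fit held organ plus dose, with 2 residual degrees of freedom and moderated variances with an intensity trend. Its two-sided p-values were adjusted by Benjamini-Hochberg and called under 0.05. On simulated data it called 24% of the organ differences set at 1 on the log2 scale and 98% of those set at 2. Most simulated 2-fold differences were thus missed. In the simulation, probe sets of like mean signal shared a single spread, whereas single probe sets differ in spread in the data. The 98% therefore holds for the simulated data only, and may overstate what the fit finds here. The number of arrays limits the precision. Genes named are the 3 members, up to 8 genes per family and 4 per other list by highest signal, and the 5 nearest profiles per member; the text gives a selection. ChiC lies outside that rule and was named, after its values were seen, because it is 1 of a count of 2. Members and lists were chosen with earlier results of these data known. Alternatives were other scalings, floors, an offset, no filter, other fold rules, other fits and leaving out each array. For lead changes the control arrays were not left out.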

Additional observations from a re-analysis of the deposited data

Results flagged for a closer look

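Some of the named genes had both root arrays with lead on one side of the control and both leaf arrays with lead on the other. None of the 3 defence genes did. The rule sets no size: EIN3 met it with log2 changes of -0.18 and -0.43 in roots and 0.30 and 0.17 in leaves. The share of all tested probe sets that meet it was not worked out, so meeting it does not set a gene apart. These differences between organs were not tested. The mean log2 change with lead in roots exceeded that in leaves by 3.92 for CHI, 3.69 for AT2G18690, 2.96 for AT4G01870, 1.73 for WRKY6 and 0.63 for SERPIN1, a serine proteinase inhibitor. The root change minus the leaf change was -1.91 for AT1G75800, -0.82 for LHCB4.1 and -0.54 for EIN3. Among these, AT2G18690, AT4G01870 and WRKY6 were picked as having profiles near that of AT2G38870, which fixes part of their direction. Each change rests on 1 control array per organ.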

How the results depend on the processing

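For OSM34 and AT2G38870 in roots the change at both doses stayed 2-fold or more under every other scaling, floor and offset tried. Leaving out an array with lead keeps only the change at the other dose, so it is no further check. On the log2 scale these changes were 2.70 and 3.68 for OSM34, and 2.05 and 2.72 for AT2G38870. Both rest on the same control root array, which was not left out for lead changes. The filter cannot alter the value of a gene. AT4G16260 in roots ranged from 0.0875 to 1.36 and, in leaves, from -0.68 to 2.84 as the 50 or the 25 ppm array was left out, and AT2G38870 in leaves from -2.37 to 0.12. OSM34 in leaves was at 0, under the floor, but its mean log2 change reached 0.85 when the 10th percentile served as floor and 0.081 with the offset. The step of AT4G16260 between the doses in leaves ran from 1.85 to 4.13 with other floors, against 3.51. The step of OSM34 from 25 to 50 ppm in roots was 1.64 with quantile normalization and so passed 2-fold; by a 1.5-fold rule its 0.97 and the -0.67 of AT2G38870 also counted, and by a 3-fold rule the 1.27 of AT4G16260 did not.

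In the organ comparison the differences of OSM34 and AT4G16260 were 5.91 to 7.75 and 4.76 to 5.88 without 1 array, and 5.03 and 4.38 with the floor at the 50th percentile. AT2G38870 ranged from 0.0708 to 2.28. The probe sets higher in roots numbered 1111 to 1532 without 1 array, against 1674, and those higher in leaves 921 to 1149, against 1168; 1111 was reached without the control root array.

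Among the tested genes of all lists, organ markers left out, 2 were higher and 1 lower in roots, and 1 higher and 1 lower in leaves, at both doses. Of all tested probe sets 2.89% and 1.82% were so in roots, and 0.982% and 1.04% in leaves. Higher in roots were 1 with the floor at the 50th percentile and 5 by the 1.5-fold rule, and lower 2 by the 1.5-fold and 0 by the 3-fold rule. In leaves 0 were higher with the floor at the 50th percentile, and lower were 2 with quantile normalization or the 1.5-fold rule and 0 with the offset or the 3-fold rule. With 1 dose left out, which makes them counts at the other dose, the list counts ran from 3 to 13 (13 without the 25 ppm root array), 1 to 5 (5 without the 50 ppm root array), 1 to 2 and 2 to 4. Of the 13, 8 were chitinases, on the root array with the high background. Of all tested probe sets 4.69% were higher and 5.49% lower in roots at 25 ppm, and 11% and 5.32% at 50 ppm. In leaves the shares were 2.87% and 3.08% at 25 ppm, and 4.45% and 3.76% at 50 ppm. The 2-fold counts over all probe sets moved with the floor and the rule: in roots 156 higher and 98 lower became 77 and 60 with the offset and 378 and 330 by the 1.5-fold rule, and in leaves 53 and 56 became 118 and 85 with the floor at the 10th percentile and 14 and 33 with the offset. The cause was not tested. The labels give no replicate numbers, so samples could not be paired by plant or culture. Root and leaf arrays were matched by dose alone, through the dose term of the fit. A change in signals under 8 could not be measured.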
